A study of Rattus norvegicus with 10 samples.

Results

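Endothelial cells line blood vessels, and the genes described here are those by which that lining is usually recognised. The set was a list of 10 genes: the secreted clotting protein gene Vwf, the junction and adhesion genes Cldn5, Cdh5, Pecam1 and Esam, the receptors for vascular endothelial growth factor (VEGF) Kdr and Flt1, the receptors Tek and Tie1 of the angiopoietin system, and the co-receptor gene Eng. Members were found by the gene symbol that the array's annotation gives each probe set, a probe set being a group of short probes for 1 transcript or a few. This gave 10 probe sets for 8 of the 10 genes, among 15866 probe sets that are not controls. Flt1 had 3 of them and the other 7 genes 1 each. No probe set carried the symbol Cdh5 or Tek in the annotation used here, so these genes were not analysed.

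RNA came from the mammary glands of Sprague-Dawley females, taken at postnatal day 50 after feeding with 1 of 3 purified diets. GEN stands for genistein, an isoflavone of soy and a ligand of estrogen receptors. The other diet names are not spelled out in the labels; from knowledge of the study, CAS is casein, the reference here, and SPI is soy protein isolate. The CAS diet had 3 arrays, numbered 1, 2 and 3, the SPI diet 4, numbered 2, 3, 4 and 5, and the GEN diet 3, numbered 1, 3 and 5. For 9 arrays the labels name a pool of 2 animals, whereas for CAS 3 the labelling text names 7. Several labelled targets were made from each pool and the labels do not say which arrays share one, so p-values measure the spread between these arrays, which may in part be technical.

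The vessel lining works as a barrier and as a signalling surface. VEGF acts through Kdr, the main signalling receptor of endothelium, while Flt1 binds VEGF tightly and also exists as a soluble form that holds the ligand back. Angiopoietins act through Tek, with which Tie1 associates, and set how stable a vessel is. In the mammary gland, capillaries run through the fat pad and around the ducts and alveoli, and they expand as the gland develops towards lactation.

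All 10 probe sets lay among the 9520 tested, whose lowest geometric mean signal was 162. The labels call the source mammary epithelial cells, but markers of other cells of the gland were measured as well. The signal filter left out the lowest 40% of all probe sets. Above it lay 9 of 10 fibroblast genes, 6 of 8 adipocyte genes and 16 of 17 luminal epithelial genes on the array. Fewer passed among skeletal muscle genes (6 of 14) and platelet genes (2 of 5). The adipocyte genes Plin1 and Lep lay below the filter, and Adipoq, Cidec and Retn had no probe set with their symbol. In such bulk RNA, fewer cells of a type and less RNA per cell cannot be told apart. The beta-actin 3'/5' signal ratio, which is higher where RNA is shorter, ran from 4.06 to 5.04 on CAS, 2.94 to 7.77 on SPI and 2.83 to 5.15 on GEN, with SPI 4 highest and GEN 5 lowest. Arrays of the same diet correlated with each other at 0.934 to 0.966 over the tested probe sets, so none was a copy of another.

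Of the 8 genes, all had a higher mean on SPI than on CAS and 7 had a higher mean on SPI than on GEN, while GEN against CAS was split into 4 higher and 4 lower. None of these differences passed the test over the whole array. The median log2 difference of the 8 genes was 0.21 in SPI against CAS, 0.30 in SPI against GEN and 0.01 in GEN against CAS, beside -0.01, -0.00431 and -0.01 over all probe sets tested. The genes were unequal in this. Vwf, Eng and Cldn5 stood farthest apart between SPI and GEN, and 1 of the Flt1 probe sets ran the other way. Kdr hardly differed between any diets, and Esam differed by at most 0.20 log2 units. The comparisons share arrays (CAS in 2 of them, SPI and GEN likewise), so their values are given side by side only.

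**Figure D1:**
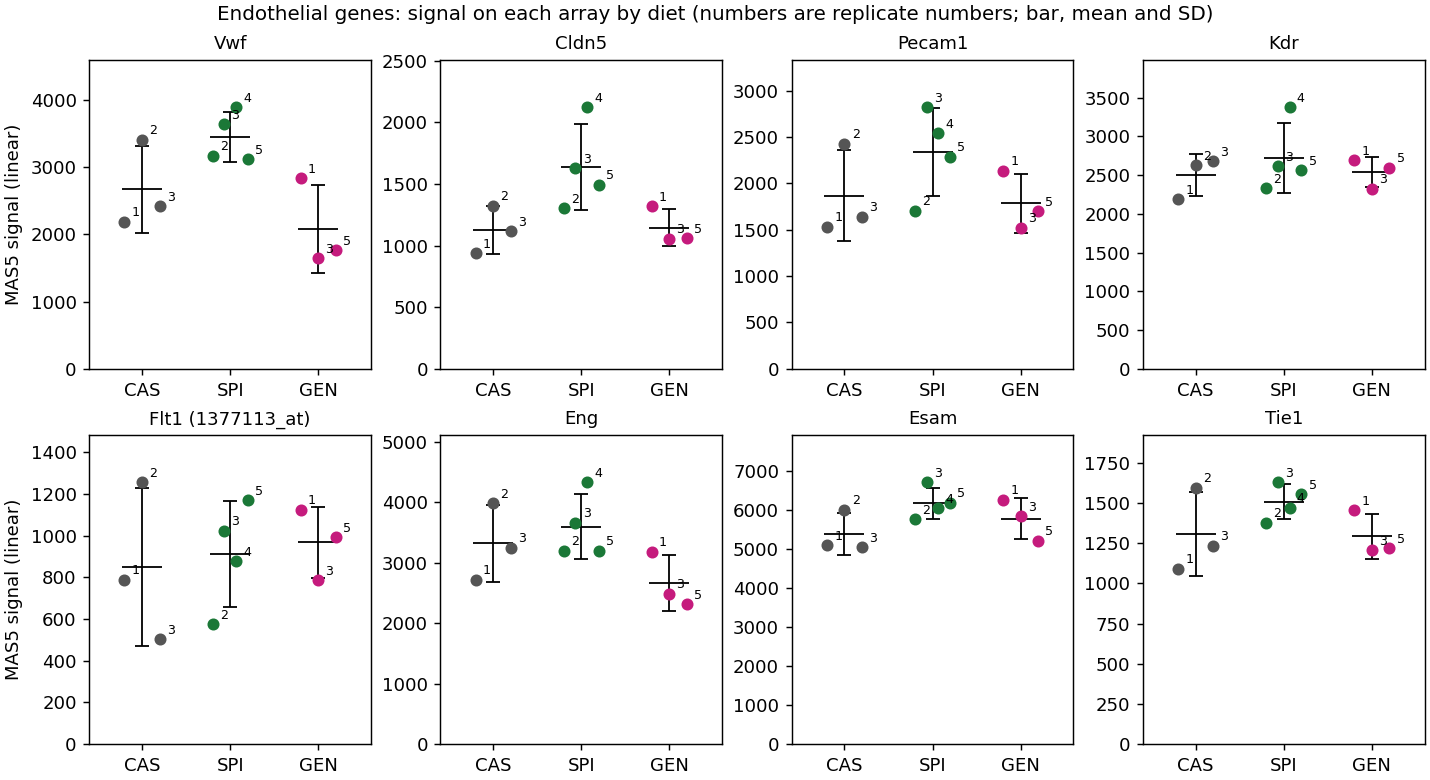
MAS5 signal (linear scale, axis from 0) of the 8 endothelial genes on each of the 10 arrays, by diet; each point is 1 array with its replicate number, the wide bar is the mean and the whiskers the SD. The brightest Flt1 probe set stands for Flt1. The SPI and GEN arrays are apart for Vwf and Eng and overlap for the other 6 genes.

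Vwf codes for von Willebrand factor, which endothelium stores and secretes and which tethers platelets at a wound. Its probe set 1389234_at read 2185, 3405 and 2421 on CAS 1, 2 and 3. On SPI 2, 3, 4 and 5 it read 3166, 3632, 3889 and 3120, and on GEN 1, 3 and 5 it read 2836, 1641 and 1765. All 4 SPI arrays lay above all 3 GEN arrays, and CAS 2 lay within the SPI range while the other 2 CAS arrays lay below it. The mean was 3452 ± 372 (SD, n = 4) for SPI, against 2670 ± 647 (SD, n = 3) for CAS and 2081 ± 657 (SD, n = 3) for GEN. The log2 difference of SPI against GEN was 0.77 ± 0.20 (SE), a factor of 1.70, with a 95% interval of 0.33 to 1.204 and an adjusted p in limma of 0.461. SPI against CAS was 0.39 ± 0.20 and GEN against CAS -0.38 ± 0.22, with adjusted p of 0.987 and 0.825 in limma. Against GEN, Vwf kept its sign and an unadjusted p under 0.05 in each of 16 alternative analyses, with values of 0.62 to 1.01 and adjusted p of 0.218 to 0.998.

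Cldn5, the claudin that seals endothelial tight junctions, gave 939, 1326 and 1116 on CAS 1, 2 and 3 with probe set 1374104_at. The SPI arrays gave 1306, 1630, 2124 and 1494 in the order 2, 3, 4 and 5, and the GEN arrays 1322, 1058 and 1059 in the order 1, 3 and 5. SPI 4 was the highest array, and SPI 2 lay below both CAS 2 and GEN 1, so neither pair of groups was free of overlap. Its means of 1127 ± 194 (SD, n = 3), 1638 ± 350 (SD, n = 4) and 1146 ± 152 (SD, n = 3) on CAS, SPI and GEN correspond to log2 differences of 0.53 ± 0.18 (SE) for SPI against CAS and 0.50 ± 0.18 for SPI against GEN. Neither passed (adjusted p in limma of 0.941 and 0.563). Without SPI 4, the array with the highest actin ratio, Cldn5 stood at 0.40 for SPI against CAS.

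The other junction members differed less. Pecam1, the adhesion molecule CD31 of endothelium, platelets and leukocytes, read 1531, 2428 and 1642 on CAS 1, 2 and 3, and 1704, 2822, 2538 and 2288 on SPI 2, 3, 4 and 5. On GEN 1, 3 and 5 it read 2137, 1523 and 1698. Each group overlapped both others, and the log2 difference was 0.33 ± 0.20 (SE) for SPI against CAS and 0.38 ± 0.20 for SPI against GEN (adjusted p in limma of 0.987 and 0.653). Esam, an immunoglobulin-like molecule at endothelial tight junctions, was the steadiest member: from 5050 on CAS 3 to 6722 on SPI 3, a factor of 1.33 over all 10 arrays. Only 7.88% of tested probe sets had a smaller standard deviation of log2 signal. Its largest difference, SPI against CAS, was 0.20 ± 0.11, with a 95% interval of -0.05 to 0.45, so a difference over 0.45 log2 units lies outside that interval.

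Kdr was nearly level across diets. Its probe set 1367948_a_at read 2192, 2627 and 2680 on CAS 1, 2 and 3, 2333, 2613, 3376 and 2562 on SPI 2, 3, 4 and 5, and 2692, 2324 and 2594 on GEN 1, 3 and 5. All but SPI 4 lay between 2192 and 2692. The log2 differences were 0.11 ± 0.14 (SE) in SPI against CAS, 0.09 ± 0.14 in SPI against GEN and 0.02 ± 0.15 in GEN against CAS. Their 95% intervals reached at most 0.43 in size, and diet held 10.05% of its variance over arrays.

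Flt1 was measured by 3 probe sets that followed one another only in part. The brightest, 1377113_at, read 788, 1257 and 504 on CAS 1, 2 and 3, 574, 1023, 878 and 1171 on SPI 2, 3, 4 and 5, and 1125, 785 and 993 on GEN 1, 3 and 5. The CAS arrays alone spanned a factor of 2.49, the same as all 10, and diet held 6.48% of the variance. The second, 1370492_a_at, lay between 358 and 750 with overlapping groups. The dimmest, 1369087_at, read 338, 355 and 233 on CAS, 227, 236, 129 and 304 on SPI, and 412, 458 and 441 on GEN, in the same order of arrays. Here every GEN array lay above every SPI and every CAS array, and SPI 4 was the lowest, below the 162 of the dimmest probe set tested. Its log2 difference of SPI against GEN was -1.03 ± 0.26 (SE, adjusted p in limma 0.441), where 1377113_at gave -0.12 ± 0.29 and 1370492_a_at gave -0.01 ± 0.25. SPI against CAS was -0.50 ± 0.26 and GEN against CAS 0.52 ± 0.28 for 1369087_at, with adjusted p of 0.987 and 0.825 in limma. Without SPI 4, SPI against CAS stood at -0.26.

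Over the 10 arrays 1369087_at correlated with the other Flt1 probe sets at a Pearson r of 0.33 (1377113_at) and 0.18 (1370492_a_at), and those correlated with each other at 0.59 (0.20 without CAS 3 and SPI 2). It ran against Cldn5 (r = -0.73, Spearman rho = -0.54), Eng (r = -0.73, rho = -0.70) and Vwf (r = -0.70, rho = -0.71). Without CAS 1 and SPI 4, r was -0.49 for Cldn5, and without GEN 3 and SPI 4 it was -0.46 for Eng. For Vwf it was -0.49 without GEN 3 and GEN 5. These were the 2 arrays farthest from the median of Cldn5, of 1369087_at and of Vwf, in that order. After subtracting diet means, r was -0.55 for Cldn5, -0.46 for Eng and -0.21 for Vwf. Among Kdr, Pecam1, Tie1 and Esam it ran from -0.74 for Kdr through -0.04 for Pecam1 to 0.17 for Tie1 and 0.25 for Esam. The value for Kdr leaned on single arrays. Over the 10 arrays r with Kdr was -0.62 (rho = -0.32), but -0.03 without CAS 1 and SPI 4, the arrays farthest from the median of Kdr. These correlations are descriptions over arrays that share their scaling, with no test. The array files used here do not say which Flt1 transcripts each probe set detects.

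**Figure D2:**
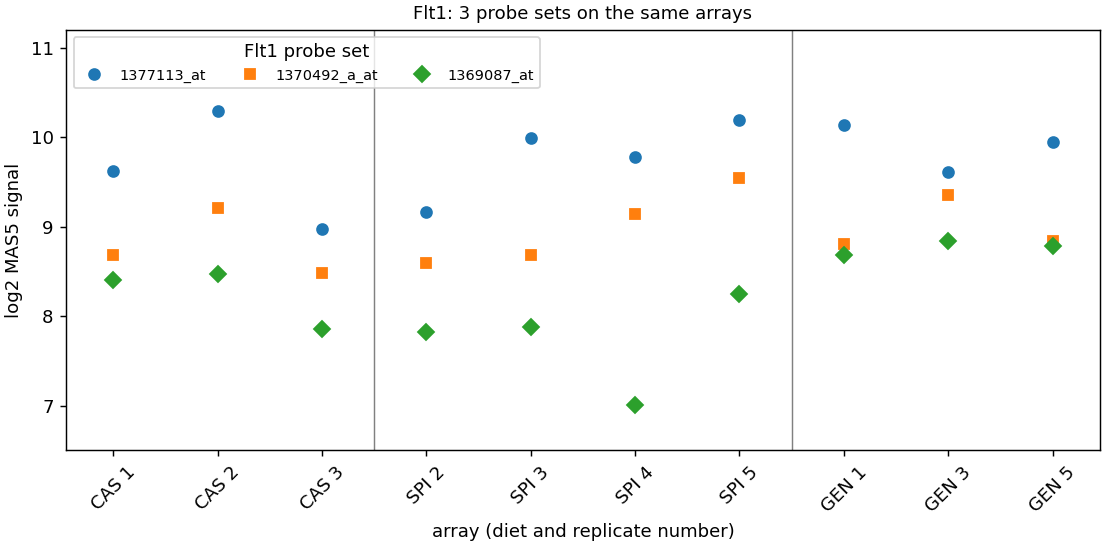
Log2 MAS5 signal of the 3 Flt1 probe sets on each array (diet and replicate number on the horizontal axis); each marker is 1 probe set on 1 array and grey lines part the diets. The 1369087_at markers are higher on the 3 GEN arrays (412 to 458 in linear signal) than on any SPI array (129 to 304), while the other probe sets overlap between diets.

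Tie1, the receptor that associates with Tek, read 1091, 1595 and 1235 on CAS 1, 2 and 3 with 1389324_at. The SPI arrays 2, 3, 4 and 5 read 1377, 1630, 1472 and 1555, and the GEN arrays 1, 3 and 5 read 1454, 1207 and 1218. CAS and SPI overlapped through CAS 2, and SPI and GEN through GEN 1. The log2 differences were 0.22 ± 0.15 (SE) for both SPI against CAS and SPI against GEN and -0.00288 ± 0.16 for GEN against CAS, with adjusted p in limma of 0.987, 0.709 and 0.996.

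Eng codes for endoglin, a co-receptor of endothelium for BMP and TGF-beta ligands that is altered in hereditary haemorrhagic telangiectasia. Its probe set 1372579_at read 2715, 3988 and 3251 on CAS 1, 2 and 3. The SPI arrays 2, 3, 4 and 5 read 3194, 3659, 4330 and 3199, and the GEN arrays 1, 3 and 5 read 3183, 2488 and 2317. As with Vwf, the SPI arrays all lay above the GEN arrays, though SPI 2 (3194) and GEN 1 (3183) were nearly equal. CAS overlapped both. The log2 difference of SPI against GEN was 0.44 ± 0.17 (SE), with a 95% interval of 0.07 to 0.80 and an adjusted p in limma of 0.566. GEN against CAS was -0.31 ± 0.18 and SPI against CAS 0.12 ± 0.17. The last of these turned to -0.01 without CAS 1.

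**Figure D3:**
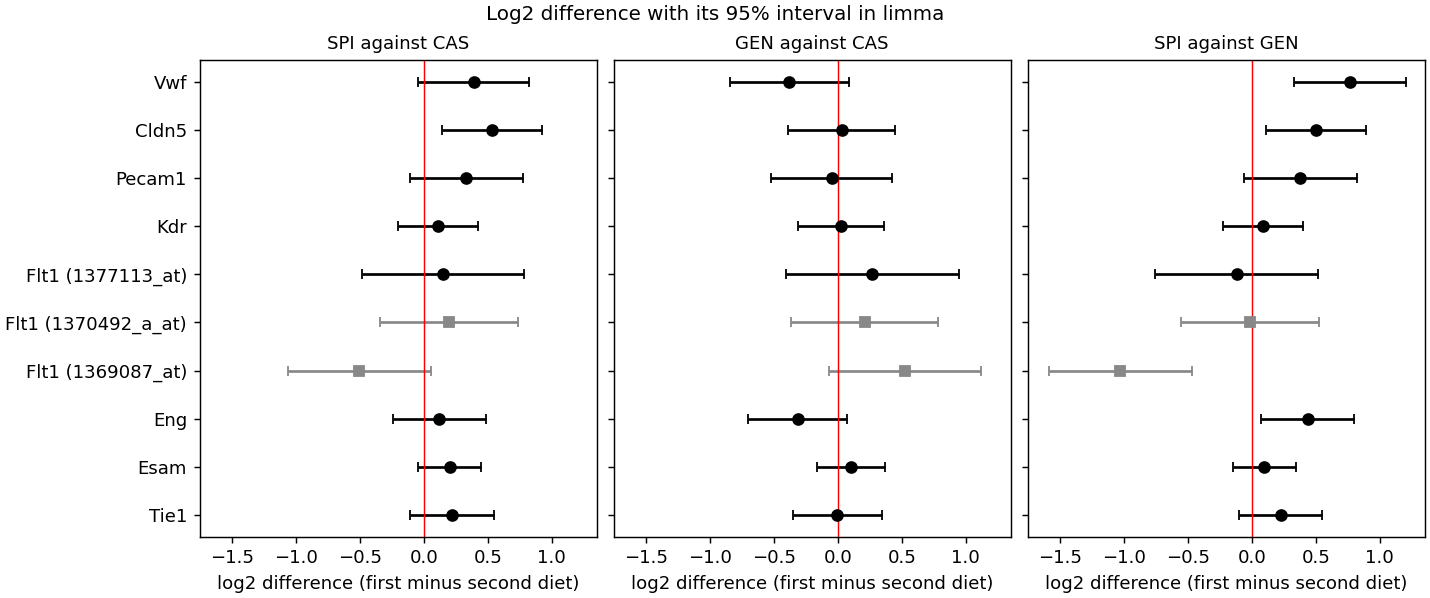
Log2 difference between diets (horizontal axis, first minus second diet) with its 95% interval in limma for the 10 endothelial probe sets; black circles are the brightest probe set of each gene, grey squares the other Flt1 probe sets, and the red line marks no difference. Intervals that leave out 0 belong to Cldn5 in SPI against CAS, and to Vwf, Cldn5, Eng and Flt1 1369087_at in SPI against GEN; none of these passed after adjustment over all probe sets.

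The 8 genes varied together from array to array, as described below, so a count of them is not a count of separate observations. They were also chosen with earlier results of these data known. Set against all probe sets, the counts of genes read as follows. In SPI against CAS, 8 of 8 genes were higher, where 47.7% of tested probe sets were; 1 of 8 (Cldn5) had an unadjusted p under 0.05, where 4.82% of probe sets did. The groups overlapped for all 8 genes, where 4.6% of probe sets were free of overlap. An adjusted p under 0.05 was reached by 0 of 8 genes and 0% of probe sets. In GEN against CAS, 4 of 8 genes were higher (47.9% of probe sets), 0 of 8 had an unadjusted p under 0.05 (5.89%), 0 of 8 were free of overlap (11.1%) and 0 of 8 passed (0%). In SPI against GEN, 7 of 8 genes were higher (49.2%), 3 of 8 had an unadjusted p under 0.05 (7.95%), 2 of 8 were free of overlap (8.5%) and 0 of 8 passed (0%). The lowest adjusted p over all probe sets was 0.170, 0.0642 and 0.132 in limma in the order of these comparisons. The 95% interval of a member's difference reached between 0.25 and 0.63 to either side in the comparisons with SPI and between 0.27 and 0.68 in GEN against CAS.

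The 8 genes varied together from array to array, within diets as well as between them. After subtracting each gene's own mean, the average over the 8 genes was -0.29, 0.22 and -0.21 log2 units on CAS 1, 2 and 3, and -0.09, 0.27, 0.32 and 0.16 on SPI 2, 3, 4 and 5. On GEN 1, 3 and 5 it was 0.10, -0.28 and -0.22. The groups overlapped, with means of -0.09 ± 0.28 (SD, n = 3), 0.17 ± 0.18 (SD, n = 4) and -0.13 ± 0.20 (SD, n = 3). Within diets the genes mostly had the same array highest or lowest. CAS 2 was the highest CAS array for 7 of 8 genes, GEN 1 was the highest GEN array for 8 of 8, and SPI 2 was the lowest SPI array for 7 of 8. On CAS 1 all 8 genes lay below their own means, and on CAS 2, SPI 3, SPI 4 and GEN 1 all 8 lay above.

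**Figure D4:**
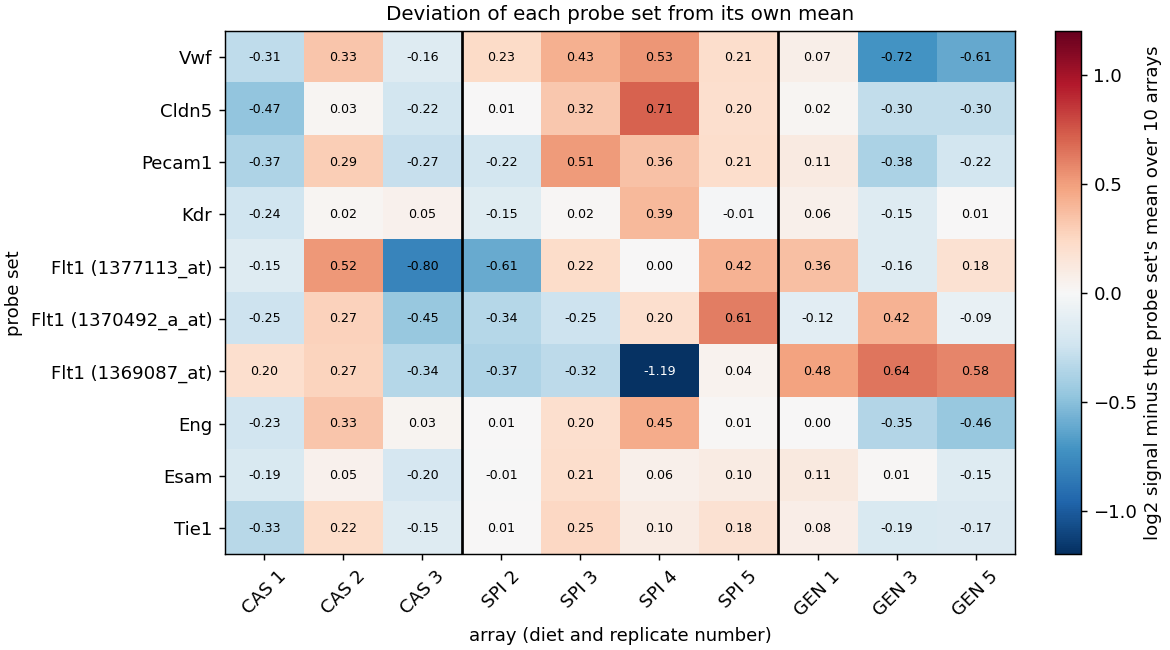
Log2 signal of each of the 10 endothelial probe sets (rows) on each array (columns, parted by diet), as the deviation from that probe set's mean over the 10 arrays; red is higher and blue lower, with the value printed in each cell. Columns tend to hold 1 colour, as on CAS 1 (below the mean for all but Flt1 1369087_at), and the row of Flt1 1369087_at runs apart, down to -1.19 on SPI 4.

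Because CAS 2 and GEN 1 were high and CAS 1 low, the differences moved with single arrays. Without CAS 2 the median of the 8 genes in SPI against CAS was 0.43 and 5 of the 8 had an unadjusted p under 0.05, whereas without CAS 1 the median was 0.16 and 0 of the 8 did. The whole array moved as well: 726 probe sets had such a p without CAS 2 and 358 without CAS 1, against 459 with all arrays. Without CAS 3, the pool labelled as 7 animals, the median was 0.18. In GEN against CAS, 2 of 8 genes were higher without CAS 1 and 2 of 8 without GEN 1, and 6 of 8 without CAS 2. In SPI against GEN the median was 0.41 without GEN 1, 0.28 without SPI 4 and 0.22 without GEN 3, and without either GEN 3 or GEN 5 only 1 of the 8 genes (Vwf) had an unadjusted p under 0.05. Over all probe sets that count was 496 without GEN 3 and 487 without GEN 5, against 757 with both.

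All 28 pairs of the 8 genes correlated positively over the 10 arrays, with Pearson r from 0.18 to 0.93 and a median of 0.69; after subtracting diet means the range was 0.17 to 0.94 and the median 0.74. Vwf and Eng had an r of 0.93 (Spearman rho 0.89, and r of 0.86 without GEN 3 and GEN 5), Pecam1 and Tie1 an r of 0.92 (rho 0.94, and 0.94 without SPI 3 and SPI 4). Pecam1 followed the mean of the other 7 genes most closely (r = 0.97, rho = 0.96), then Tie1 (r = 0.91, rho = 0.90), and Flt1 least (r = 0.41, rho = 0.53). All are descriptions over 10 arrays that share a scaling, with no test.

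Among 8054 tested probe sets of other single genes, the 10 whose signal followed the mean of the 8 genes most closely over the 10 arrays were Rab2b (r = 0.95), Gadd45b (0.94), Cacna1c (0.94), Macf1 (0.93), Lgalsl (0.93), Notch1 (0.93), Epha4 (0.93), Prkar1a (0.92), Mapre2 (0.92) and Cltb (0.92). Their Spearman rho ran from 0.79 for Epha4 to 0.95 for Macf1. Without CAS 1 and SPI 4, the arrays farthest from the median of that mean, r was 0.90 to 0.97, and after subtracting diet means it was 0.88 to 0.96. None of the 10 belonged to the endothelial lists described next. A search over so many probe sets yields high values by construction, so these names are a description only.

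Other genes of the same pathways gave mixed values, and 0 of any list passed an adjusted p of 0.05 in any comparison. Of the VEGF ligands and receptors other than Kdr and Flt1, 5 genes were tested. In SPI against CAS 1 of the 5 was higher: Vegfc (0.23 ± 0.16 SE), while Vegfa, the main ligand of Kdr, stood at -0.35 ± 0.20 with mean signals of 434 on SPI and 573 on CAS. The placental growth factor gene Pgf, whose product binds Flt1, stood at -0.57 ± 0.29 in SPI against GEN, with 207 against 304 (adjusted p = 0.638 in limma). Flt4, Nrp2 and Vegfd lay below the signal filter.

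In the angiopoietin system, Angpt2, a ligand of Tek that endothelium releases, was among the genes most apart. Its mean signal was 2440 on CAS, 3395 on SPI and 2336 on GEN, and the 4 SPI arrays lay above the 3 GEN arrays. The log2 difference was 0.53 ± 0.18 (SE) for SPI against CAS and 0.54 ± 0.18 for SPI against GEN (adjusted p in limma of 0.941 and 0.558). Ptprb, the endothelial phosphatase that acts on Tek, stood at 0.05 ± 0.20 and -0.06 ± 0.20 in the same comparisons. Angpt1 had no probe set with its symbol.

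Of the BMP and TGF-beta genes beside Eng, 11 were tested; 7 were higher in SPI against CAS, 3 in GEN against CAS and 6 in SPI against GEN. Smad5, which carries BMP signals to the nucleus, had 842 on GEN against 1026 on CAS and 1062 on SPI, and its GEN arrays lay below those of both other diets (log2 difference of SPI against GEN 0.33 ± 0.14, adjusted p = 0.603 in limma).

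Junction and adhesion genes outside the set were higher on SPI than on CAS in 9 of 13. They were also higher on SPI than on GEN in 9 of 13, with medians of 0.10 and 0.15. Those lowest against GEN were the occludin gene Ocln at -0.75 ± 0.18 (SE) and plakoglobin, Jup, at -0.79 ± 0.22 (adjusted p in limma of 0.407 and 0.461). In GEN against CAS they stood at 0.47 ± 0.19 and 0.45 ± 0.24. The luminal epithelial genes described below had medians of -0.83 in SPI against GEN and 0.42 in GEN against CAS. Which cells the signal of Ocln and Jup came from was not tested. In SPI against GEN the melanoma adhesion molecule Mcam, of endothelium and pericytes, stood at 0.68 ± 0.26 with its brightest probe set and at -0.17 with another.

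The list of other endothelial markers held 20 tested genes, of which 17 were higher in SPI against CAS (median 0.13), 13 in GEN against CAS (0.05) and 12 in SPI against GEN (0.04). Mmrn2, an endothelial matrix protein, had 1922 on SPI against 1316 on GEN (0.55 ± 0.14 SE, adjusted p = 0.461 in limma) and 1654 on CAS. Plvap, which forms the diaphragms of capillary pores, had 7278 on SPI against 5383 on GEN (0.43 ± 0.20, adjusted p = 0.623). For both the SPI and GEN arrays did not overlap. Ramp2, a subunit of the adrenomedullin receptor, had 4305 on SPI against 3287 on GEN (0.40 ± 0.18, adjusted p = 0.603), with overlap. Stab1, a scavenger receptor of sinusoidal endothelium and macrophages, had 298 on GEN against 563 on CAS (-0.92 ± 0.27, adjusted p = 0.825), and SPI against GEN stood at 0.59 ± 0.25 with overlap (adjusted p = 0.596).

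Transcription factors of endothelium were higher in SPI against GEN for 12 of 13 tested genes (median 0.28) and lower in GEN against CAS for 10 of 13 (median -0.23); in SPI against CAS 9 were higher (median 0.04). Klf4, a Krüppel-like factor of endothelium and epithelium, had the smallest p in SPI against CAS and was lower on SPI (-0.38 ± 0.15 SE, 4941 against 6480, adjusted p = 0.987 in limma). Epas1, the hypoxia factor HIF-2 alpha, stood at 0.35 ± 0.13 (SE) in SPI against CAS with its brightest probe set and at 0.12 with another. Klf2, which responds to blood flow, stood at -0.50 ± 0.17 in GEN against CAS with its brightest probe set, and at -0.16 to 0.09 with 3 others. In the same comparison Klf4 stood at -0.43 ± 0.16 and Hhex, a homeobox factor, at -0.62 ± 0.27, both with GEN arrays below all CAS arrays (adjusted p = 0.825 in limma). Foxo1, a forkhead factor, had the smallest p in SPI against GEN, at 0.45 ± 0.20 with overlap (adjusted p = 0.616). Of 4 lymphatic endothelial genes, 1 was higher in SPI against CAS and 0 in SPI against GEN, led by Reln at -1.11 ± 0.32 in the latter (adjusted p = 0.479 in limma), with overlapping groups.

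Pericytes and smooth muscle wrap the vessels. Of 15 genes listed for them, 9 were higher in SPI against CAS (median 0.13), 9 in GEN against CAS (0.07) and 11 in SPI against GEN (0.14). Acta2 and Cnn1 of this list are also counted among the basal epithelial genes below. The muscle filament gene Des had 2893 on SPI against 1975 on GEN (0.54 ± 0.17 SE, adjusted p = 0.558 in limma), without overlap.

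Markers of other cells moved over the same arrays, and their part in the values above was not tested. The 17 luminal epithelial genes on the array had a summed signal of 32771 to 72229 on CAS, 23105 to 57387 on SPI and 69114 to 93419 on GEN. Of the 16 above the filter, 0 were higher in SPI against GEN (median -0.83), 14 in GEN against CAS (0.42) and 1 in SPI against CAS (-0.31). SPI 4 had the lowest luminal sum and the highest endothelial average, whereas CAS 1 and GEN 5 were high in the first and low in the second. GEN 1 was an exception, with a luminal sum of 73228 and an endothelial average above the mean. Of the 15 leukocyte genes on the array 11 were tested, and 0 were higher in SPI against CAS (median -0.65) or SPI against GEN (-0.24). The summed signal of all 15 ran from 6156 to 13262 on CAS, 4712 to 9409 on SPI and 6168 to 9884 on GEN. Ptprc, the pan-leukocyte phosphatase, averaged 175 on SPI, 359 on CAS and 203 on GEN, and its SPI arrays all lay below its CAS arrays. The log2 difference of Ptprc in SPI against CAS was -1.01 ± 0.30 (SE, adjusted p = 0.802 in limma). Cd3d, Cd3e, Cd79b and Itgam lay below the filter.

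Of the 5 platelet genes on the array, 3 lay below the filter. The summed signal of all 5 was 1074 to 1920 on CAS, 996 to 1541 on SPI and 998 to 1667 on GEN. Pf4, a platelet chemokine, averaged 690 on SPI and 1161 on CAS, and the platelet integrin gene Itga2b 293 and 249. Adipocyte genes were higher in SPI against CAS in 4 of 6 tested and in SPI against GEN in 3 of 6 (medians 0.16 and 0.01). The 8 on the array had summed signals of 19620 to 23458 on CAS, 20046 to 23815 on SPI and 21211 to 22976 on GEN. Fibroblast genes were higher in 0 of 9 in SPI against CAS (median -0.47) and 2 of 9 in SPI against GEN (-0.17). Sums of the 10 fibroblast genes on the array were 55686 to 103850 on CAS, 39037 to 79016 on SPI and 54442 to 69348 on GEN. Skeletal muscle genes were higher in 0 of 6 in SPI against CAS and 2 of 6 in SPI against GEN. The 14 on the array had sums of 2798 to 10041 on CAS, 2378 to 3004 on SPI and 2840 to 3150 on GEN. The value of 10041 was CAS 1 alone, the other CAS arrays being at 2798 and 2932. CAS 1 also had the highest fibroblast sum (103850) and was the array on which all 8 endothelial genes lay below their means. Of basal epithelial genes, 3 of 5 were higher in SPI against CAS and 1 of 5 in SPI against GEN (medians 0.08 and -0.82). Sums of the 6 on the array were 5847 to 7219, 5613 to 8235 and 6491 to 9539 on CAS, SPI and GEN. Red cell genes were higher in 0 of 3 in SPI against CAS and 2 of 3 in SPI against GEN (medians -0.18 and 0.27), with sums of 9465 to 12600, 7629 to 14680 and 6691 to 13860. With the actin ratio as a covariate the median of the 8 endothelial genes was 0.21 in SPI against CAS and 0.28 in SPI against GEN.

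**Figure D5:**
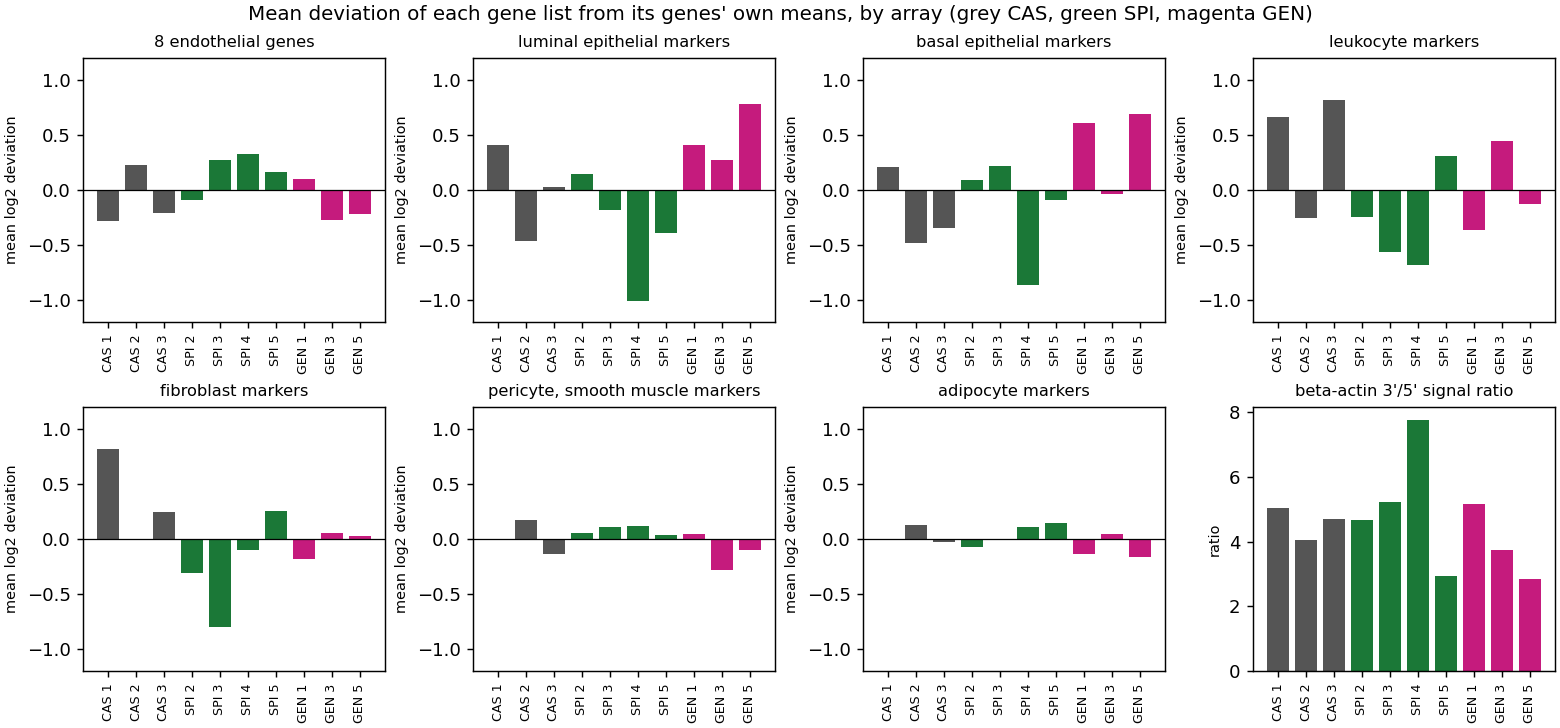
Mean deviation (log2 units) of the genes of each list from their own means on each array, for the 8 endothelial genes and 6 lists of other cells, with the beta-actin 3'/5' ratio of each array in the last panel; bars are single arrays, grey for CAS, green for SPI and magenta for GEN. SPI 4 has the highest endothelial bar (0.32), the lowest luminal bar (-1.01) and the highest ratio (7.77).

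Promoter sequences were looked up because several members varied together. RefSeq's table on build GRCr8 held the 300 bases around the start site (250 before, 50 after) for 5 of the 10 members: Cldn5, Kdr, Flt1, Eng and Tie1. Each sequence is written 5′ to 3′ along the gene, with matches to AGGAAG, the letters of a common ETS-factor site, or to its reverse complement CTTCCT in capitals. Eng and Cldn5, which correlated at 0.82 over the arrays, and Flt1, which followed the others least, are shown:
Eng, chr3:36332029-36332328, plus strand: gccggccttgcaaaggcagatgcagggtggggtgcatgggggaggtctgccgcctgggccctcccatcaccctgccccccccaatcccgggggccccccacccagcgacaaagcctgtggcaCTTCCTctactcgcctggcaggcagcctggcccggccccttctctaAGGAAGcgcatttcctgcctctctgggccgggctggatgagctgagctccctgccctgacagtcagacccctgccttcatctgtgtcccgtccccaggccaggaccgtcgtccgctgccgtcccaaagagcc
Cldn5, chr11:95718549-95718848, minus strand: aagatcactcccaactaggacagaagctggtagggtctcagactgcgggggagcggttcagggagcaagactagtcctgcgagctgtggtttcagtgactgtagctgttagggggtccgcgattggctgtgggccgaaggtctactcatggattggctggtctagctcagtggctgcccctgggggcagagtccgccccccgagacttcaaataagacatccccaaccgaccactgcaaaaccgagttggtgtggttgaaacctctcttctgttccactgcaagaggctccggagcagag
Flt1, chr12:12333180-12333479, plus strand: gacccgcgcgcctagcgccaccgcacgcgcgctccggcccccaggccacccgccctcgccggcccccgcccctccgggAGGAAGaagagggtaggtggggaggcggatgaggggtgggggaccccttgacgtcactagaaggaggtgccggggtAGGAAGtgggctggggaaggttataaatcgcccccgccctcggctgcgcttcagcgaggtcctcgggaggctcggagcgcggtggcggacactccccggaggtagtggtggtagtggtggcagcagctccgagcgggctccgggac

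The Eng window held 2 such matches, beginning at -128 and -82 from the start site, Flt1 held 2, at -172 and -96, and Tie1 held 1, at -61. Cldn5 and Kdr held 0. Of all 33469 promoters in the table, 34.5% held a match on either strand, beside 3 of 5 members. The GC box GGGCGG was found in 4 of 5 (33.1% of all), the FOX motif TGTTTA in Kdr alone (13.7%), TATAAA in Flt1 alone (14.2%), the estrogen response half-site AGGTCA in Tie1 alone (16.2%) and the GATA motif AGATAA in 0 of 5 (11.6%). Each motif was searched on both strands. Matches are descriptions of letters and do not show that a factor binds.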

How the data were processed

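RNA pools were labelled and hybridised to 10 Affymetrix RAE230 arrays, per the labels' protocols. The deposited values are MAS5 signals, an intensity for each probe set in linear units; the submitters' processing notes name MAS5 without a version. Because the authors' software scales whole arrays, a difference in total RNA cannot be seen.

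Of 15923 probe sets, 57 controls were left out. Values under 1 (0.0637%) were set to 1 before log2, and the lowest 40% by mean log2 signal over all arrays were not tested. Gene symbols are those of the platform annotation (0 changed on updating by gene identifier); 12783 probe sets had 1 symbol, 312 several and 2771 none. A gene with several probe sets is represented by the brightest.

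Log2 signal was fitted across all probe sets with limma 3.58.1 in R 4.3.3 (lmFit, eBayes with trend), all 10 arrays in 1 fit, adjusted by Benjamini-Hochberg over 9520 probe sets, with a threshold of 0.05. Genes named from a list are those past that threshold or, where there was none, up to 4 with the smallest p in a comparison. The fit was tested on simulated data with independent noise and with shifts larger than nearly all differences of the members. That simulation does not cover differences as small as most of these. The members and lists were chosen with earlier results of these data known. Alternatives were other filters, scalings and variance models, a pseudocount of 32, 2-diet fits, the actin ratio as a covariate, replicate number as a block, and leaving out each array.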

Additional observations from a re-analysis of the deposited data

How the results depend on the processing

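Over all alternatives, 0 endothelial probe sets had an adjusted p under 0.05 in limma. The count of the 8 genes that were higher stayed within 7 to 8 for SPI against CAS and 6 to 8 for SPI against GEN, and ran from 2 to 6 for GEN against CAS when arrays were left out, so no direction is given there. For SPI against GEN, Vwf and Flt1 1369087_at kept their sign and an unadjusted p under 0.05 in 16 of 16 alternatives, Cldn5 in 13 and Eng in 11; Kdr changed sign in 2 of 16. For GEN against CAS, Tie1 changed sign in 6 of 15. Centring arrays on their medians moved the median of all probe sets by 0.07 for SPI against CAS, and the median of the members to 0.28. Over the whole table the count of probe sets called was 0 in each comparison. Leaving out 1 array gave 0 to 2 in SPI against CAS, 0 to 1 in SPI against GEN and 0 to 1 in GEN against CAS, and fitting only the SPI and GEN arrays gave 2, none of them endothelial members. Replicate numbers are shared between diets, but same-numbered arrays did not deviate together (r from -0.18 to 0.16 over 6 pairs). With the replicate block, the median of the members was 0.24 in SPI against CAS, 0.24 in SPI against GEN and 0.02 in GEN against CAS, and the probe sets of SPI against GEN with an unadjusted p under 0.05 numbered 286 in place of 757. Without a filter on dim probe sets, 1213 of 15866 had such a p, beside 757 of 9520 with it, so these counts have different totals. The replicate block adds terms to a fit of the same 10 arrays, and number 4 occurs on SPI 4 alone. The cause of these shifts was not tested. With 3 or 4 arrays per diet, the 95% interval of a member's difference reached at least 0.25 log2 units to either side.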
